A study of Mus musculus with 20 samples.

Results

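Reactive microglia are the brain's resident macrophages in a state known from degeneration and demyelination. Described here are 10 genes linked to that state or to lysosomes, Trem2, Tyrobp, Axl, Cd9, Csf1, Cd63, Ctsd, Ctsb, Cd68 and Lpl. They were measured in bulk RNA, which does not separate microglia from other cells. The genes were chosen as a named list of disease-associated microglia and lysosomal genes, identified among the 49671 genes of the count tables by gene identifier and mouse symbol. All 10 were found, and all 10 were among the 18427 genes with enough counts to be tested. RNA was sequenced in bulk from single frozen hippocampi of 20 adult male wild-type mice aged 10 to 12 weeks, in 4 groups of 5. The control group received isotype-matched antibody by intraperitoneal injection and carried no tumour. The ICI group, also tumour-free, received immune checkpoint inhibitors, antibodies that block receptors restraining T cells. Anti-CTLA-4 was given 3 times per week in doses of 1 mg, and anti-PD-1 was given 2 times per week in doses of 200 µg. The melanoma group carried tumours of D4M-3A.UV2, a syngeneic mouse melanoma line injected into the skin on both sides with 500000 cells per injection, and received isotype antibody after 1 week of engraftment. The melanoma plus ICI group carried the same tumours and received both inhibitors, for which the labels state 3 weeks. The interval from the final injection to harvest was 72 hours. The tumour is outside the brain, the melanoma is 1 cell line, and each library is the RNA of a whole hippocampus with all its cell types. The groups address how checkpoint inhibition and melanoma, apart and together, bear on inflammatory and degenerative gene expression in the brain.

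In the disease-associated state, microglia are known to lower homeostatic genes and to raise genes for lipid handling, phagocytosis and lysosomal digestion. TREM2 is a lipid-sensing surface receptor that signals through the adaptor TYROBP, also called DAP12, and entry into the full state is known to need it. Cargo taken up by phagocytosis reaches lysosomes, where cathepsins digest protein, and tetraspanins such as CD9 and CD63 organise the membranes of the cell surface and of late endosomes. CSF1 is a growth factor on which microglia depend, AXL recognises dying cells, CD68 is a glycoprotein of macrophage lysosomes, and lipoprotein lipase releases fatty acids from lipoproteins.

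The libraries held between 21990624 and 25735149 counts. On the first principal component of all genes 2 libraries stood apart, control replicate 4 at -71.4 and replicate 1 of melanoma plus ICI at -61.5, with the others between -27.5 and 40.9. Values without them are given for several of the members and lists whose counts or differences moved. All 14 microglia markers were tested, and their summed level was 395.3 to 516.1 counts per 1000000 (CPM) for control, 377.4 to 424.8 for ICI, 401.3 to 417.5 for melanoma and 393.2 to 443.9 for melanoma plus ICI. Several markers of the reactive state had few counts. Itgax had 128 counts, Clec7a 88 and Cst7 56, each summed over the 20 libraries, and none of these was tested. Ccl3 and Ccl4 had 88 and 25. Spp1 and Gpnmb, also raised in that state, had 4093 and 2387 counts and were tested. Apoe, made by astrocytes as well as by microglia, had 719224 counts. The list is therefore named here by its genes, since most of them are also made by other brain cells. Of 8 markers of neutrophils and monocytes, 0 had enough counts to be tested, and the highest, S100a9, had 89 counts in all.

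Levels of different genes were set side by side per kilobase of exon, by the exonic length of each gene model in the count tables. These lengths, such as 4946 bases for Trem2, 10478 for Lpl and 667 for Tyrobp, can exceed those of the transcripts made. The order is therefore rough. Over all 20 libraries it ran from Ctsb at 105.4 CPM per kilobase through Ctsd at 81.2, Cd63 at 76.6, Cd9 at 18.8 and Axl at 10.1. Below these came Tyrobp at 9.78, Csf1 at 6.01, Cd68 at 5.03, Lpl at 3.03 and Trem2 at 2.27. On this scale the lysosomal proteases and Cd63 were well above Trem2 and Tyrobp. Between libraries, Lpl varied most, with the highest library 4.78-fold above the lowest, and Ctsb least, with 1.31-fold. No adjusted p passed 0.05 with edgeR for any of the 10 genes in any of 6 contrasts. The groups overlapped for every member in each of the 5 pairwise comparisons (0 members apart), beside 0.147% to 0.901% of all tested genes whose groups were apart in 1 direction.

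**Figure D1:**
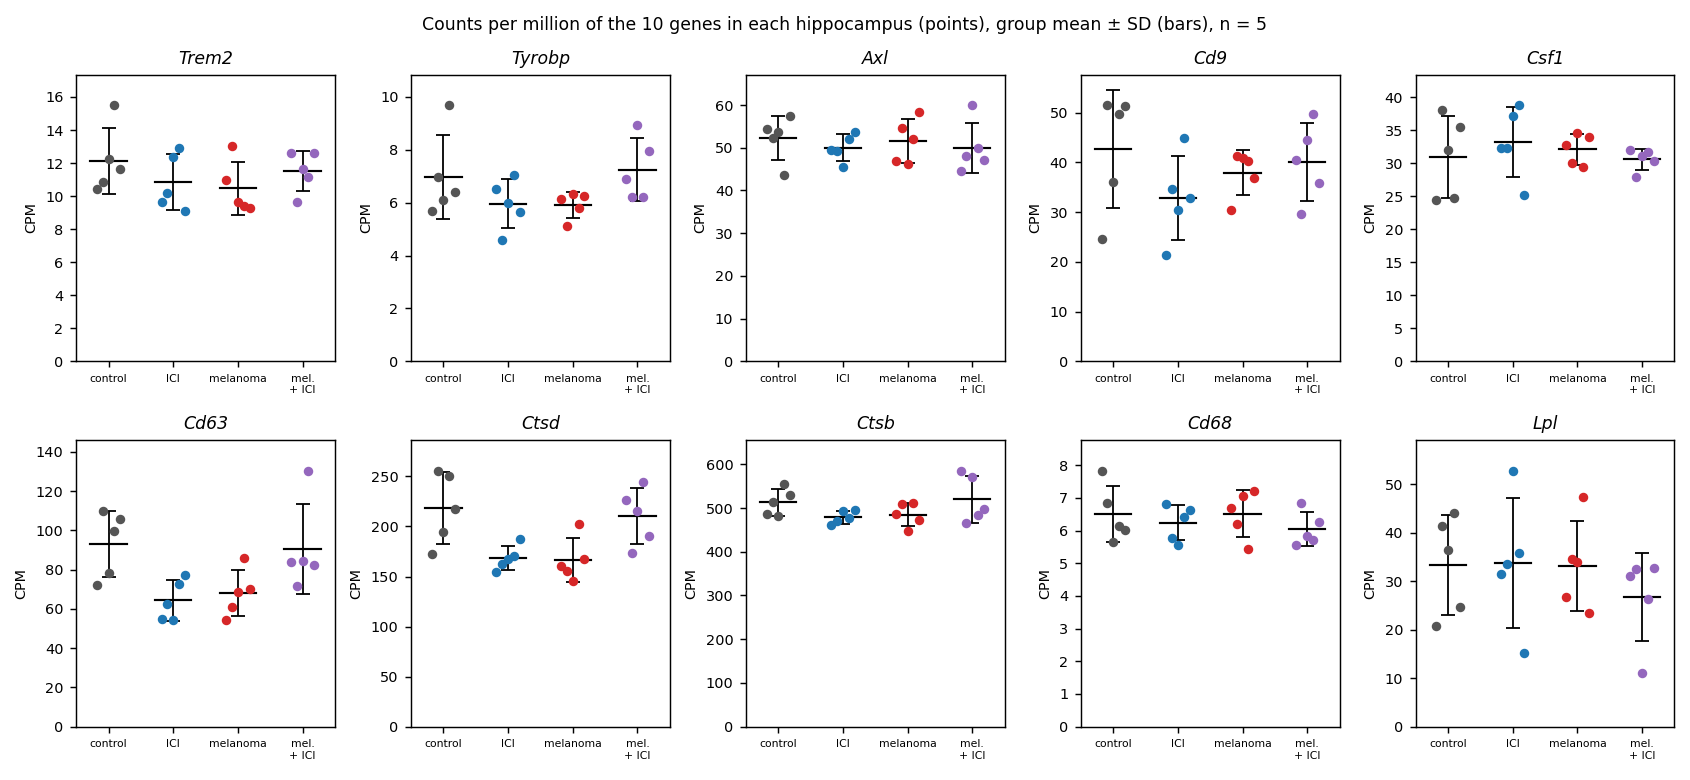
Counts per 1000000 (CPM, vertical axis, from 0) of each of the 10 genes in control, ICI, melanoma and melanoma plus ICI ("mel. + ICI") hippocampi. Points are single mice and bars are the group mean and SD of 5. Cd63 and Ctsd have lower means in ICI and in melanoma than in the other groups, and the groups overlap for every gene.

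Cd63 and Ctsd had the smallest p-values of the list. Both had lower mean levels in mice given either ICI or a tumour alone than in controls, and means close to that of control in mice given ICI with a tumour. Tyrobp, Trem2, Cd9 and Ctsb also had means in ICI and melanoma below those of both other groups, and of these only Tyrobp had an unadjusted p under 0.05 in the edgeR fit without covariates, in the interaction. The means of Axl, Csf1, Cd68 and Lpl were not placed in this way. No difference passed the adjusted threshold in edgeR, so these are ordered means with their unadjusted p-values and not calls.

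For ICI against control, 0 of the 10 genes passed an adjusted p of 0.05 in edgeR, where the share over all tested genes was 0%. At an unadjusted p under 0.05, 2 of 10 were lower and 0 higher, against 5.23% of all tested genes, 3.15% lower and 2.08% higher. For melanoma against control the members gave 0 at the adjusted threshold (background 0%) and again 2 lower and 0 higher without adjustment, against 5.11% of all tested genes, 2.41% lower and 2.7% higher. When melanoma plus ICI was set against control, 0 of 10 passed either threshold, with backgrounds of 0% and 2.38%, the latter made of 1.1% higher and 1.28% lower. When it was set against melanoma alone, 0 passed after adjustment (background 0%) and 2 were higher and 0 lower before it, against 5.5% of all tested genes, 2.63% higher and 2.87% lower. When it was set against ICI alone, 0 passed after adjustment (background 0%) and 2 were higher and 0 lower before it, against 8.63% of all tested genes, 4.12% higher and 4.51% lower. Single libraries moved these counts. The 2 higher than in melanoma became 1 without melanoma replicate 1 (1.82% of all tested genes in that fit). The 2 higher than in ICI became 4 without ICI replicate 4 (3.79%). Without both control replicate 4 and melanoma plus ICI replicate 1, each of these counts was 3. In that fit 4.09% of all tested genes were higher than in melanoma and 5.3% higher than in ICI.

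The interaction is the log2 effect of ICI in tumour-bearing mice minus its effect in tumour-free mice. There 0 of 10 passed after adjustment (background 0%), and 3 were higher before it, Ctsd, Cd63 and Tyrobp, against 10.3% of all tested genes, 5.99% higher and 4.28% lower. The 3 became 5 with scores of choroid plexus and meninges, tissues bordering the hippocampus, as covariates, a fit in which 13.7% of all tested genes were higher and 10.3% lower. They became 2 without control replicate 4, ICI replicate 2 or melanoma plus ICI replicate 3, and without both control replicate 4 and melanoma plus ICI replicate 1. In these fits of fewer libraries 4.73% to 7.1% of all tested genes were higher. The median over the 10 members was 0.25, beside 0.02 over all tested genes, and was 0.15 both with limma voom and without control replicate 4 and melanoma plus ICI replicate 1. Against control the members' medians were -0.13 for ICI, -0.13 for melanoma and -0.06 for melanoma plus ICI, beside -0.01, -0.01 and 0.00 over all genes. The medians of melanoma plus ICI were 0.09 relative to melanoma and 0.10 relative to ICI, beside 0.02 and 0.02. These medians are small and moved with single libraries. That of ICI against control was -0.08 without control replicate 4, -0.21 without ICI replicate 3 and -0.24 with the covariates, and that of melanoma against control was -0.21 without control replicate 1 and -0.07 with limma voom. That of melanoma plus ICI against control lay between -0.11, without control replicate 1, and -0.01, without melanoma plus ICI replicate 2 or control replicate 2, and was -0.03 without control replicate 4 or 5. Relative to melanoma it was 0.06 without melanoma replicate 1 or melanoma plus ICI replicate 3, 0.15 without melanoma plus ICI replicate 2 and 0.02 with limma voom, and relative to ICI it was 0.06 without melanoma plus ICI replicate 1 and 0.24 with the covariates. These comparisons share libraries: the same 5 controls enter the interaction and 3 of the pairwise contrasts.

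Other tools called some genes where edgeR called 0 of 18427. DESeq2 called 47 genes in the interaction, 9 between melanoma plus ICI and ICI, 8 between melanoma and control, 1 between ICI and control, and 0 in the remaining contrasts. Limma voom with quality weights called 19 in the interaction, 25 between melanoma plus ICI and melanoma, 1 between melanoma and control, and 0 in the others. Of the 10 members, DESeq2 called 2, Ctsd and Cd63, and only in the interaction, with adjusted p-values of 0.0282 and 0.0404. Limma voom called 0 members, with interaction adjusted p-values of 0.0974 for Ctsd and 0.112 for Cd63.

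**Figure D2:**
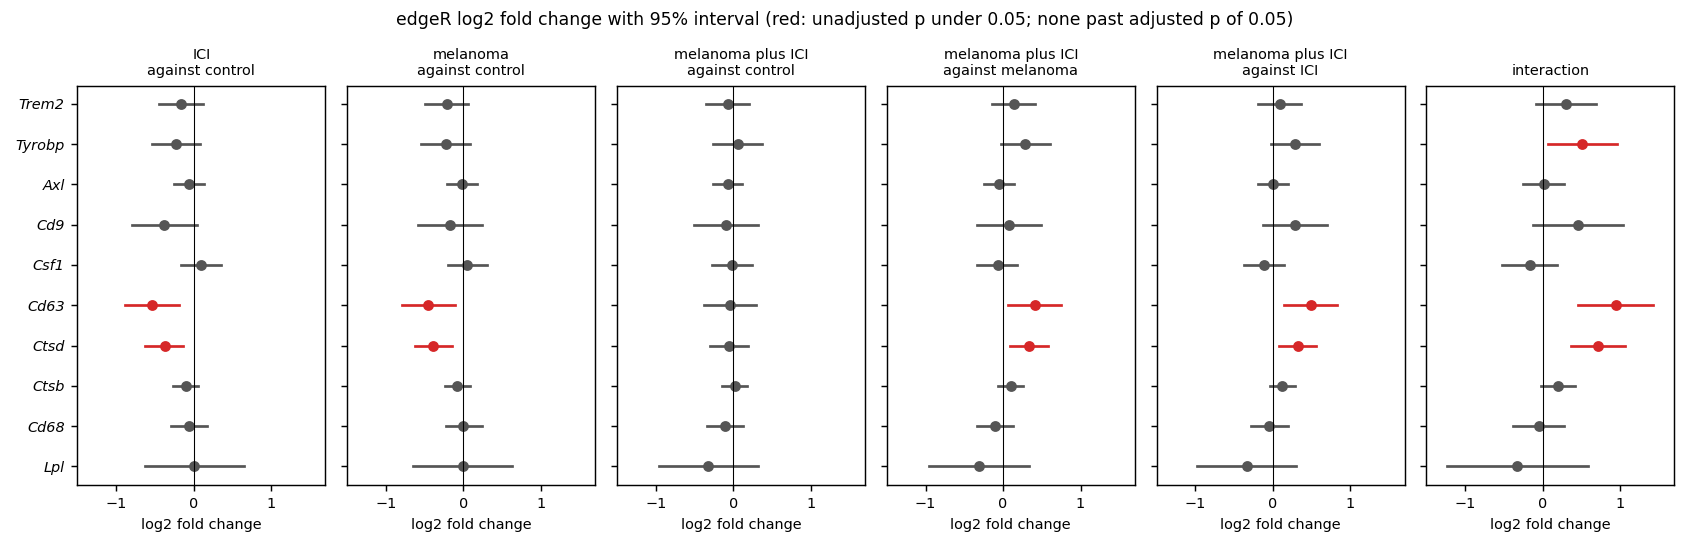
Log2 fold change (horizontal axis) and 95% interval of each of the 10 genes in 6 contrasts from the edgeR fit over all tested genes. Red marks an unadjusted p under 0.05. Cd63 and Ctsd lie left of 0 in ICI and melanoma against control and right of 0 where melanoma plus ICI is set against melanoma or ICI, and in the interaction.

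The receptor Trem2 (ENSMUSG00000023992, chr17:48346401-48354147, plus strand) was a low-abundance gene, with 205 to 336 counts per library. Trem2 stood at 10.4, 10.8, 12.3, 15.5 and 11.6 CPM in the control mice and at 9.65, 10.2, 12.4, 12.9 and 9.11 in the ICI mice. Its levels were 10.97, 13.1, 9.66, 9.37 and 9.29 CPM in melanoma and 12.6, 9.66, 11.7, 11.1 and 12.6 in melanoma plus ICI. The highest value was that of control replicate 4, and the groups overlapped throughout. Group means were 12.1 ± 2.01 (SD, n = 5), 10.8 ± 1.69, 10.5 ± 1.60 and 11.5 ± 1.22 CPM in the order control, ICI, melanoma and melanoma plus ICI. The contrast of smallest p was the interaction, at 0.30 (SE 0.19, 95% interval -0.09 to 0.69), with an edgeR unadjusted p of 0.1258 and an adjusted p of 0.512. Melanoma against control came next, at a log2 difference of -0.21 (SE 0.13, 95% interval -0.49 to 0.06, edgeR unadjusted p = 0.1261, adjusted p = 0.877). The Trem2 difference of melanoma from control was -0.11 without control replicate 4, and -0.31 without melanoma replicate 2 (edgeR unadjusted p = 0.0316). The interaction was 0.17 without control replicate 4 and melanoma plus ICI replicate 1, and 0.40 without melanoma replicate 2 (edgeR unadjusted p = 0.0443). With the choroid plexus and meninges scores as covariates it was 0.55 (edgeR unadjusted p = 0.00869, adjusted p = 0.136), in a fit where 23.9% of all tested genes had an unadjusted p under 0.05. In that fit Trem2 also had an unadjusted p under 0.05 in ICI against control (-0.27, edgeR unadjusted p = 0.0425), in melanoma against control (-0.27, edgeR unadjusted p = 0.0333) and in melanoma plus ICI against melanoma (0.29, edgeR unadjusted p = 0.0381), as had 13.6%, 12.3% and 14.7% of all tested genes in these 3 contrasts.

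Trem2's promoter window held TGAATCA, a match to TGANTCA, where N is any base. TGANTCA is a loose form of the site of AP-1, the factor family of FOS and JUN, so a match need not be such a site. Promoter windows came from RefSeq (GRCm38.p6), ran from 250 bases before to 50 after a gene's start, were matched for 7 of the 10 genes, and were searched on both strands. There were 4 motifs. Besides TGANTCA, the search covered the E-box, with the letters CACGTG. It covered the core of the CLEAR element of lysosomal genes, TCACGTGA, which contains the E-box. The fourth was GAGGAAGT, bound by PU.1, the master factor of macrophages. Of all 32851 windows in the table, 7.81% held TGANTCA, 7.15% CACGTG, 0.974% TCACGTGA and 3.2% GAGGAAGT. The Trem2 stretch is shown because the match, in capitals, starts at position -9 relative to the gene's start, in chr17:48346372-48346400 on the plus strand.
Trem2: ctcacgcccttctccctcctTGAATCAca

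Tyrobp, the signalling adaptor of TREM2 (ENSMUSG00000030579, chr7:30413760-30417585, plus strand), was the other component of the receptor complex and had at most 231 counts in a library. Tyrobp was at 5.68, 6.98, 6.11, 9.69 and 6.40 CPM in control and at 6.52, 4.59, 6.001, 7.04 and 5.64 in ICI. It was at 6.14, 5.12, 6.33, 5.81 and 6.25 CPM in melanoma and at 6.90, 6.23, 8.94, 6.20 and 7.96 in melanoma plus ICI. The high control value was again replicate 4, and 3 of 5 melanoma plus ICI mice lay above every melanoma mouse. The means were 6.97 ± 1.59, 5.96 ± 0.930, 5.93 ± 0.493 and 7.25 ± 1.19 CPM (SD, n = 5). Its interaction of 0.51 (SE 0.21, 95% interval 0.07 to 0.96) had an edgeR unadjusted p of 0.0263 and an adjusted p of 0.484. Without control replicate 4 the interaction was 0.38, with an unadjusted p of 0.0558. The interaction was 0.44 without ICI replicate 2 (edgeR unadjusted p = 0.0535) and 0.44 without melanoma plus ICI replicate 3 (edgeR unadjusted p = 0.0534). Without control replicate 4, Tyrobp was higher in melanoma plus ICI by 0.29 relative to melanoma (edgeR unadjusted p = 0.0316) and by 0.28 relative to ICI (edgeR unadjusted p = 0.0373), where all libraries gave 0.29 (edgeR unadjusted p = 0.07) and 0.28 (edgeR unadjusted p = 0.0775).

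Trem2 and Tyrobp encode partners of 1 receptor complex, yet their levels over the 20 mice were only loosely related. Pearson's r of log2 CPM was 0.51 (rho 0.38, permutation p = 0.02, adjusted p = 0.0999 over 45 pairs of members), and it was 0.26 without the 2 libraries farthest from the median. Beside the microglia score, the mean log2 CPM of the 14 microglia markers, r was 0.63 for Trem2 (Spearman's rho 0.47, permutation p = 0.00252, adjusted p = 0.0512 over 160 pairs of gene and score) and 0.66 for Tyrobp (rho 0.48, permutation p = 0.00256, adjusted p = 0.0512). Both relations were weaker without the libraries at the ends of the score. Without the 2 libraries farthest from its median, r was 0.37 for Trem2 and 0.24 for Tyrobp. On deviations from the group means r was 0.56 for Trem2 and 0.64 for Tyrobp.

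Partners of the complex were compared as a list. Of 13 tested genes for TREM2 ligands and downstream signalling, such as Syk, Plcg2 and Inpp5d, 2 were lower in ICI against control at an unadjusted p under 0.05 by edgeR (3.15% of all tested genes), and 2 were lower when melanoma plus ICI was set against ICI (4.51%). For the interaction 1 was higher and 0 lower (5.99% and 4.28%), while 10 of 13 lay below 0, with a median of -0.15. Of these TREM2 ligands and signalling genes the number lower in ICI was 0 without control replicate 4 or ICI replicate 1 or 2, and 1 without control replicate 2. The ligand Clu, an apolipoprotein made by astrocytes, was at 845.8 ± 62.5 CPM in control and 750.4 ± 46.4 in ICI (log2 difference -0.17, SE 0.07, edgeR unadjusted p = 0.0311, adjusted p = 0.766). Vav3, a guanine nucleotide exchange factor, was at 8.33 ± 2.61 CPM in control and 5.56 ± 0.898 in melanoma plus ICI (log2 difference -0.58, SE 0.24, unadjusted p = 0.0281, adjusted p = 1.0 by edgeR).

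Axl (ENSMUSG00000002602, chr7:25757273-25788705, minus strand), a receptor tyrosine kinase for the bridging ligands GAS6 and PROS1, was level across the groups. Its CPM lay between 43.6 and 57.5 for control, 45.6 and 53.6 for ICI, 46.2 and 58.4 for melanoma, and 44.6 and 60.0 for melanoma plus ICI. The means were 52.3 ± 5.22, 50.04 ± 3.08, 51.6 ± 5.19 and 49.9 ± 5.92 CPM (SD, n = 5). The smallest p was in melanoma plus ICI against control, at a log2 difference of -0.07 (SE 0.09, 95% interval -0.26 to 0.12, edgeR unadjusted p = 0.466, adjusted p = 1.0). Every pairwise 95% interval for Axl lay within -0.26 and 0.19 on the log2 scale.

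The TAM receptors and their ligands were compared as a list. Of 7 tested genes for the TYRO3, AXL and MERTK receptors and their ligands, with Axl itself left out, 3 were higher and 1 lower in the interaction at an unadjusted p under 0.05 (5.99% and 4.28% of all tested genes). Pros1, protein S, was at 11.03 ± 1.15 CPM in ICI and 14.6 ± 1.52 in melanoma plus ICI, and the ranges were 9.91 to 12.97 and 13.03 to 16.6 (log2 difference 0.41, SE 0.11, edgeR unadjusted p = 0.00114, adjusted p = 0.563). Gas6 was at 130.4 ± 21.7, 107.0 ± 18.6, 109.2 ± 11.3 and 135.2 ± 29.9 CPM in the 4 groups, with an interaction of 0.59 (SE 0.21, edgeR unadjusted p = 0.0101, adjusted p = 0.476). With choroid plexus and meninges scores as covariates, 0 of the TAM receptors and ligands were higher in the interaction at that threshold, against 13.7% of all tested genes in that fit.

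Csf1 (ENSMUSG00000014599, chr3:107741048-107760469, minus strand), the ligand of the CSF1 receptor, also differed little. Its CPM was 24.5 to 38.1 for control, 25.2 to 38.8 for ICI, 29.4 to 34.7 for melanoma and 27.9 to 31.9 for melanoma plus ICI. The means were 31.0 ± 6.21, 33.2 ± 5.28, 32.1 ± 2.34 and 30.6 ± 1.62 CPM (SD, n = 5). The smallest p was in the interaction, -0.17 (SE 0.17, 95% interval -0.53 to 0.19), with an edgeR unadjusted p of 0.336 and an adjusted p of 0.658. Of 8 tested genes of the CSF1 receptor pathway, with Csf1 left out and the receptor Csf1r and the ligand Il34 included, 0 had an unadjusted p under 0.05 in any of the 6 edgeR contrasts. Over all tested genes the share per contrast was 2.38% to 10.3%, so 0 of 8 is near it. The smallest p-values there were those of Irf8, a transcription factor of microglia, with an interaction of 0.25 (SE 0.13, unadjusted p = 0.0718, adjusted p = 0.491), and Cebpa, with -0.34 in melanoma plus ICI against melanoma (SE 0.20, unadjusted p = 0.104, adjusted p = 0.825).

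The tetraspanin Cd9 (ENSMUSG00000030342, chr6:125460266-125494791, minus strand) was variable within every group. Cd9 stood at 24.7, 51.5, 36.1, 49.7 and 51.5 CPM in control and at 21.4, 34.7, 30.4, 45.01 and 32.8 in ICI. It stood at 30.4, 41.2, 40.9, 40.4 and 36.9 CPM in melanoma and at 40.6, 29.6, 44.6, 49.8 and 35.8 in melanoma plus ICI. The lowest mice of the control, ICI and melanoma groups were each replicate 1, and all groups overlapped. The means were 42.7 ± 11.9, 32.9 ± 8.50, 38.0 ± 4.59 and 40.1 ± 7.79 CPM (SD, n = 5). The smallest p was in ICI against control, at a log2 difference of -0.38 (SE 0.20, 95% interval -0.79 to 0.04, edgeR unadjusted p = 0.0721, adjusted p = 0.766). Single mice moved this value of Cd9. It was -0.53 without control replicate 1 (edgeR unadjusted p = 0.00798, adjusted p = 0.717), -0.52 without ICI replicate 4 (edgeR unadjusted p = 0.017, adjusted p = 0.817) and -0.26 without ICI replicate 1 (edgeR unadjusted p = 0.192, adjusted p = 0.895). Its interaction of 0.46 (edgeR unadjusted p = 0.12) was 0.61 without control replicate 1 (edgeR unadjusted p = 0.0219) and 0.60 without ICI replicate 4 (edgeR unadjusted p = 0.0398).

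Cd9 varied with markers of oligodendrocytes, the myelin-forming cells. Its log2 CPM had r = 0.80 with the oligodendrocyte score of 8 myelin genes (rho 0.77, permutation p = 6e-05, adjusted p = 0.0048, n = 20). The relation was r = 0.74 without the 2 farthest libraries and 0.89 on deviations from the group means. With the microglia score r was 0.35 (rho 0.36, permutation adjusted p = 0.388, 0.22 without the 2 farthest libraries). The 3 genes most like Cd9 of 15474 were Trf, Cd82 and Car2, with r of 0.95, 0.93 and 0.92 over the 20 libraries, and Trf and Car2, for transferrin and a carbonic anhydrase, are known oligodendrocyte genes. The summed oligodendrocyte markers ranged from 3018 to 8775 CPM for control, 3307 to 7773 for ICI, 6675 to 9080 for melanoma and 3094 to 8588 for melanoma plus ICI, and their part in the differences of Cd9 was not tested.

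Cd63 (ENSMUSG00000025351, chr10:128908919-128912816, plus strand), a tetraspanin of late endosomes, lysosomes and exosomes, had the largest interaction of the list. Cd63 was at 72.1, 109.9, 78.2, 99.4 and 105.6 CPM in the control mice and at 54.6, 62.6, 54.3, 72.6 and 77.2 in the ICI mice. Its levels were 54.4, 61.1, 68.6, 85.8 and 69.9 CPM in melanoma and 83.6, 71.7, 84.2, 130.4 and 82.4 in melanoma plus ICI. Below every control lay 3 of 5 ICI mice and 4 of 5 melanoma mice, and 4 of 5 melanoma plus ICI mice lay above every ICI mouse. The means were 93.1 ± 16.9, 64.3 ± 10.4, 68.0 ± 11.8 and 90.5 ± 22.9 CPM (SD, n = 5).

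On the log2 scale, Cd63 differed by -0.53 in ICI against control (SE 0.16, 95% interval -0.88 to -0.19, edgeR unadjusted p = 0.00394, adjusted p = 0.766) and by -0.45 in melanoma against control (SE 0.16, unadjusted p = 0.0118, adjusted p = 0.835). It was higher by 0.41 in melanoma plus ICI against melanoma (SE 0.16, edgeR unadjusted p = 0.0201, adjusted p = 0.825) and by 0.49 against ICI (SE 0.16, unadjusted p = 0.00688, adjusted p = 0.563). Between melanoma plus ICI and control the difference was -0.04 (95% interval -0.38 to 0.30). The interaction was 0.95 (SE 0.23, 95% interval 0.46 to 1.43), with an edgeR unadjusted p of 0.000579, the 40th smallest of 18427, and an adjusted p of 0.253. A single mouse, melanoma plus ICI replicate 4, was far above its group, and without it the interaction was 0.79 (unadjusted p = 0.000946) and the difference from melanoma 0.25 (unadjusted p = 0.105), both by edgeR. Without melanoma replicate 1 the latter was 0.34 (unadjusted p = 0.0587).

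The protease Ctsd, cathepsin D, the main aspartic protease of lysosomes (ENSMUSG00000007891, chr7:142375911-142388038, minus strand), also had lower means in both single-treatment groups. Ctsd stood at 172.7, 255.9, 194.9, 250.6 and 217.6 CPM in control and at 154.9, 162.2, 167.7, 170.0 and 187.3 in ICI. It stood at 161.0, 155.1, 145.5, 202.8 and 167.9 CPM in melanoma and at 226.3, 173.8, 215.4, 244.6 and 190.9 in melanoma plus ICI. In both single-treatment groups 4 of 5 mice lay below every control, and 4 of 5 melanoma plus ICI mice lay above every ICI mouse. The means were 218.3 ± 35.6, 168.4 ± 12.1, 166.5 ± 21.9 and 210.2 ± 28.2 CPM (SD, n = 5).

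Ctsd differed from control by similar amounts in both single-treatment groups. The log2 difference from control was -0.37 in ICI (SE 0.12, 95% interval -0.62 to -0.13, edgeR unadjusted p = 0.00441, adjusted p = 0.766) and -0.39 in melanoma (SE 0.12, unadjusted p = 0.00318, adjusted p = 0.688). Melanoma plus ICI was higher than melanoma by 0.34 (SE 0.12, edgeR unadjusted p = 0.00913, adjusted p = 0.825) and than ICI by 0.32 (SE 0.12, unadjusted p = 0.0125, adjusted p = 0.563). Against control it differed by -0.05 (95% interval -0.30 to 0.19). The interaction of 0.71 (SE 0.16, 95% interval 0.37 to 1.06) had an edgeR unadjusted p of 0.000347, the 22nd smallest of 18427, and an adjusted p of 0.253.

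Markers of tissue bordering the hippocampus also differed between the libraries, and the mean choroid plexus score was below that of control in ICI and in melanoma. Choroid plexus is the secretory tissue of the ventricles, and all 8 of its markers were tested, none at 0 in any library. Their summed CPM ranged from 34.8 to 6185 for control, 22.2 to 2215 for ICI, 44.9 to 3684 for melanoma and 68.9 to 6572 for melanoma plus ICI, and the mean of the score, in log2 CPM, was 4.2, 3.57, 3.29 and 4.8. The 8 meningeal markers summed to 418.0 to 1256 CPM, 187.6 to 808.2, 366.3 to 1082 and 697.5 to 1148 in the same order. Over the 20 mice Cd63 had r = 0.59 with the choroid plexus score (rho 0.67, permutation p = 0.00579, adjusted p = 0.0658 for r and 0.0371 for rho over 160 pairs, 0.54 without the 2 farthest libraries), and Ctsd had r = 0.48 (rho 0.60, permutation p = 0.0328, adjusted p = 0.192, 0.40 without them). On deviations from the group means these were 0.60 for Cd63 and 0.44 for Ctsd. With the meninges score Cd63 had r = 0.48 (rho 0.38, permutation p = 0.0314, adjusted p = 0.192, 0.31 without the 2 farthest libraries, 0.27 on deviations from the group means). Ctsd had r = 0.54 with the microglia score (rho 0.47, permutation p = 0.00797, adjusted p = 0.075, 0.37 without the 2 farthest libraries, 0.33 on deviations from the group means). With the score of the hippocampal field CA1, Ctsd had r = -0.49 (rho -0.54, permutation p = 0.0285, adjusted p = 0.184, -0.54 without the 2 farthest libraries, -0.42 on deviations from the group means). Mean scores of mural cells (3.85, 3.53, 3.69 and 3.86 in the order of the groups), of meninges (4.54, 3.95, 4.31 and 4.95), of endothelium (4.76, 4.50, 4.71 and 4.74), of neocortex (4.75, 4.48, 4.64 and 4.95) and of microglia (4.70, 4.56, 4.57 and 4.61) were likewise lower in ICI and melanoma than in the other groups. Those of red blood cells (1.56, 0.16, 1.55 and 1.41) and of border macrophages (0.50, 0.14, 0.67 and 0.82) were lowest in ICI. Summed striatal markers had means of 124.7, 110.2, 447.6 and 213.8 CPM in that order, so melanoma was highest. The part of microglia, mural cells, endothelium, neocortex, red blood cells, border macrophages and striatum in the differences of Cd63 and Ctsd was not tested.

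With both scores as covariates the edgeR interaction was 0.69 for Cd63 (unadjusted p = 0.00458, adjusted p = 0.134) and 0.71 for Ctsd (unadjusted p = 0.00064, adjusted p = 0.131). In that fit the background was higher, with 23.9% of all tested genes at an unadjusted p under 0.05 in the interaction. Without control replicate 4 and melanoma plus ICI replicate 1 the interactions were 0.96 and 0.64. The higher level of Cd63 in melanoma plus ICI than in melanoma was 0.24 with the covariates (edgeR unadjusted p = 0.112), and that against ICI was 0.31 (edgeR unadjusted p = 0.0612). The same differences of Ctsd were 0.33 (edgeR unadjusted p = 0.0125) and 0.34 (edgeR unadjusted p = 0.0151). In bulk RNA, fewer cells of a type and less RNA per cell cannot be told apart.

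**Figure D3:**
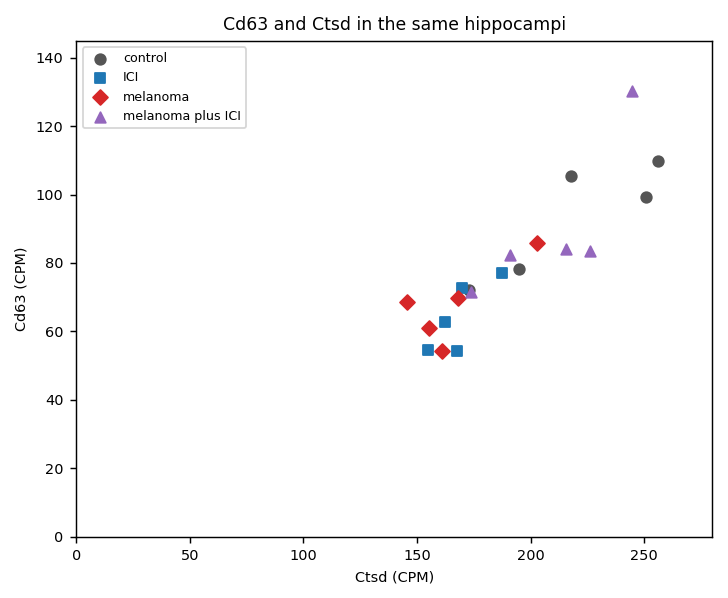
Ctsd (horizontal axis) against Cd63 (vertical axis) in CPM, 1 point per hippocampus, with the group shown by shape and colour. The 2 genes run together over the 20 mice (r = 0.89 of log2 CPM), with ICI and melanoma mice towards the lower left and melanoma plus ICI replicate 4 at the top.

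Cd63 and Ctsd also ran together from mouse to mouse. Their log2 CPM had r = 0.89 and rho = 0.93 over the 20 libraries (permutation p = 1e-05 for both, the smallest that 100000 resamples give, adjusted p = 0.00045 over 45 pairs). The value was 0.85 without the 2 farthest libraries and 0.79 on deviations from the group means. Out of 15474 genes, Cd63 was the 7th most like Ctsd, and Ctsd the 10th most like Cd63. The genes most like Cd63 were Npc2, Sod3 and Tmem176b, at r of 0.94, 0.92 and 0.92. Those most like Ctsd were Bsg, Glmp and Ctsl, at 0.95, 0.92 and 0.91. Npc2, a cholesterol carrier, Glmp, a membrane glycoprotein, and Ctsl, cathepsin L, are lysosomal proteins.

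Ctsd's promoter window was the only member window with the CLEAR core TCACGTGA, which is bound by TFEB and related factors of lysosome biogenesis. Its stretch is shown with the CLEAR core in capitals, which starts at position -99 relative to the RefSeq start at chr7:142387827, in chr7:142387894-142387951 on the minus strand. The gene model of the count tables starts further upstream, at chr7:142388038, so the stretch lies inside it. A further CACGTG began at position -245.
Ctsd: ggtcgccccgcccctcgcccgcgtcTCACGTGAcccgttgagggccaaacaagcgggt

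The E-box CACGTG was present in 10 of 35 windows of genes for lysosomal hydrolases and activators (28.6%) and in 11 of 31 for lysosomal membrane proteins and regulators (35.5%), against 7.15% of all windows. Among the hydrolase genes, 5 of 10 with the E-box and 10 of 25 without it were higher in the interaction at an unadjusted p under 0.05, with medians of 0.30 and 0.23. Among the membrane protein genes the counts were 2 of 11 with the E-box and 4 of 20 without it, with medians of 0.13 and 0.15. These are matches of letters and not measured sites.

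Ctsb, cathepsin B, a cysteine protease (ENSMUSG00000021939, chr14:63122462-63145919, plus strand), was the most abundant and the steadiest member. Its CPM lay between 480.8 and 555.6 for control, 460.0 and 496.4 for ICI, 446.5 and 510.9 for melanoma, and 465.2 and 585.8 for melanoma plus ICI. The means were 513.3 ± 31.3, 479.1 ± 15.2, 485.0 ± 26.9 and 520.2 ± 54.2 CPM (SD, n = 5). The interaction was 0.20 (SE 0.11, 95% interval -0.02 to 0.42, edgeR unadjusted p = 0.074, adjusted p = 0.491), and the interval of ICI against control, -0.26 to 0.06, holds 0. Ctsb shares 767 exonic bases with Fdft1 on the opposite strand, whose counts were 15.6% of its own, and without stated strand use reads in the shared bases cannot be told apart. Ctsb followed Ctsd over the mice (r = 0.69, rho 0.68, permutation p = 0.00078, adjusted p = 0.0117 over 45 pairs, 0.67 without the 2 farthest libraries). With the microglia score Ctsb had r = 0.61 (rho 0.55, permutation p = 0.00417, adjusted p = 0.0607 over 160 pairs, 0.56 without the 2 farthest libraries), and with the neocortex score 0.63 (rho 0.33, permutation p = 0.00305, adjusted p = 0.0518, 0.29 without them). Its interaction was 0.29 with the choroid plexus and meninges covariates (edgeR unadjusted p = 0.0222), 0.24 without melanoma plus ICI replicate 2 (edgeR unadjusted p = 0.0401) and 0.20 with DESeq2 (unadjusted p = 0.0358).

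The other lysosomal enzymes were compared as a list. Of 41 tested genes for lysosomal hydrolases and activators other than the members, 9 were lower and 0 higher in ICI against control at an unadjusted p under 0.05 by edgeR, and 5 were lower and 0 higher with melanoma against control. With melanoma plus ICI 7 were higher than in melanoma, 12 were higher than in ICI and 0 were higher or lower than in control at that threshold. In the interaction 18 of 41 were higher and 0 lower, 34 of 41 lay above 0, and the median was 0.27. Over all tested genes 3.15% were lower in ICI and 2.41% in melanoma against control, 2.63% were higher in melanoma plus ICI than in melanoma and 4.12% than in ICI, and in the interaction 5.99% were higher and 4.28% lower, with a median of 0.02. None of the 41 passed an adjusted p of 0.05 in edgeR. In the interaction DESeq2 called 2 of them, beside 47 of 18425 genes over the whole table, and limma voom 1, beside 19 of 18427.

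Gm2a, the activator of ganglioside breakdown, was at 60.4 ± 4.04 CPM for control, 50.8 ± 3.43 for ICI, 50.5 ± 3.23 for melanoma and 59.1 ± 4.45 for melanoma plus ICI. Its interaction of 0.48 (SE 0.10) had an edgeR unadjusted p of 0.000117 and an adjusted p of 0.253. The aminopeptidase Ctsh, cathepsin H, was at 11.2 ± 1.11, 7.98 ± 1.34, 9.21 ± 1.14 and 11.2 ± 1.26 CPM, with an interaction of 0.76 (SE 0.17, edgeR unadjusted p = 0.000251, adjusted p = 0.253).

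The count of lysosomal hydrolases and activators higher in the interaction was 12 to 19 with each library left out in turn, 17 without control replicate 4 and melanoma plus ICI replicate 1, 13 with limma voom and 15, with 1 lower, under the choroid plexus and meninges covariates, where 13.7% of all tested genes were higher and 10.3% lower. Counts in the pairwise contrasts moved more. The 9 lower after ICI became 4 without control replicate 4, 5 without ICI replicate 1 or 2 and 14 without ICI replicate 5. The 5 lower with melanoma became 10 without control replicate 1. The 7 higher in melanoma plus ICI than in melanoma became 4 without melanoma replicate 1. The 12 higher than in ICI became 5 without ICI replicate 2, ICI replicate 3 or melanoma plus ICI replicate 4, and 6 without ICI replicate 1 or 4. They became 7 without melanoma replicate 2 or 5, without melanoma plus ICI replicate 1 or 3, or with the covariates, where 7.76% of all tested genes were higher.

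**Figure D4:**
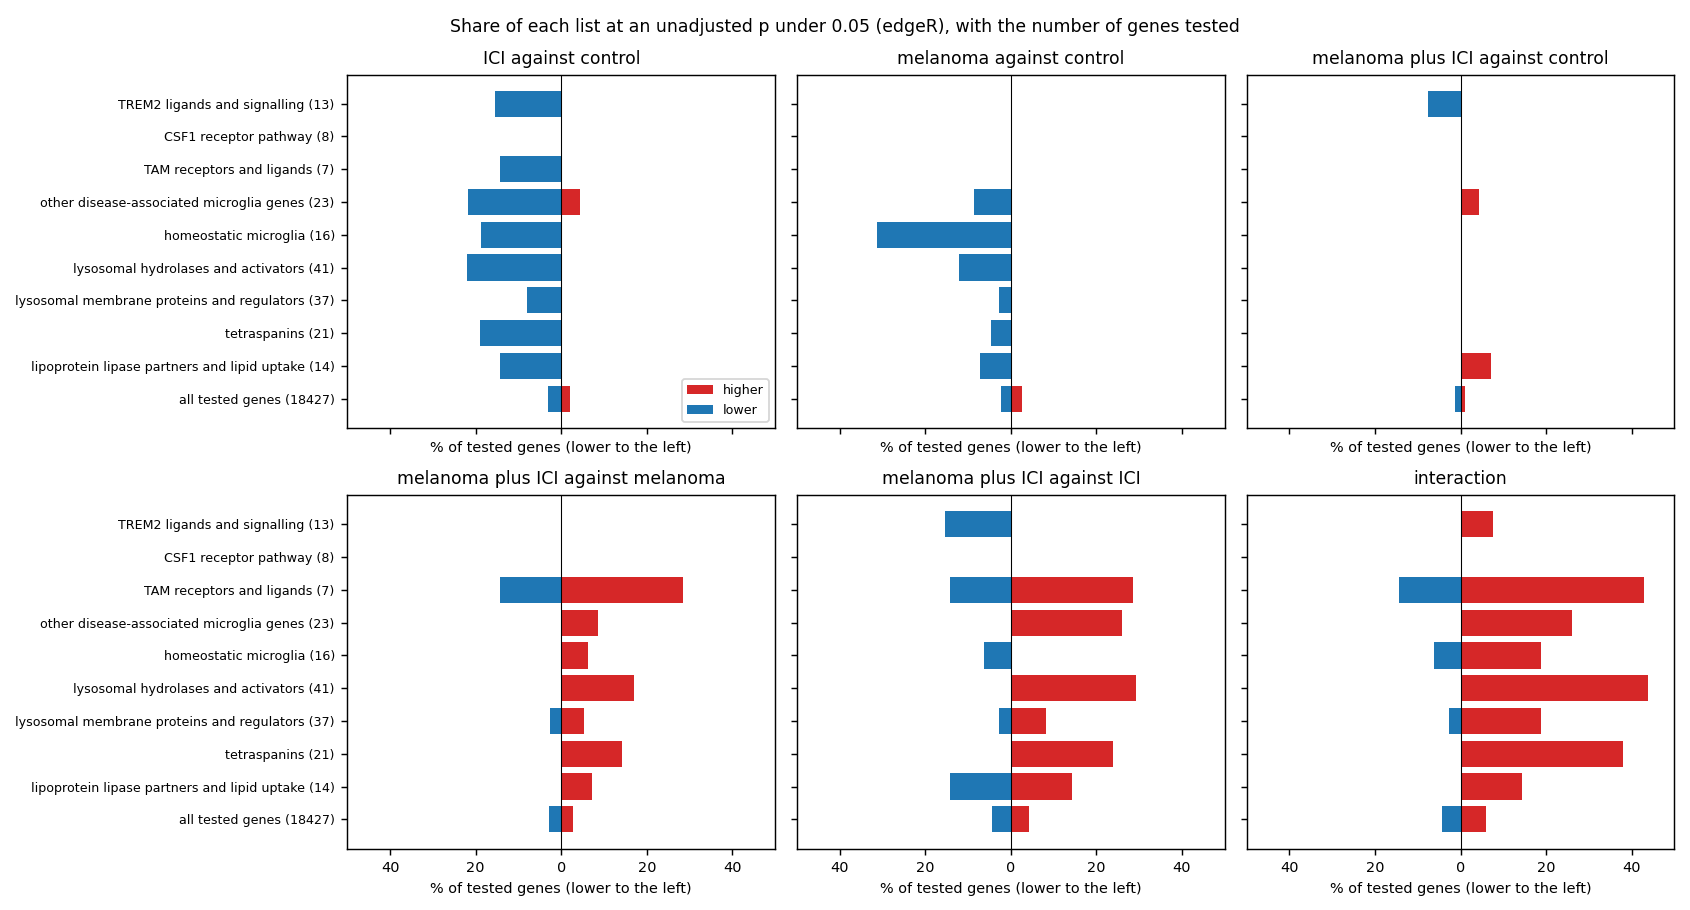
Share of each list's tested genes (number in brackets) with an unadjusted p under 0.05 in each of 6 edgeR contrasts, lower to the left and higher to the right (horizontal axis, percent). The bottom bar of each panel is the share over all 18427 tested genes. Of the 41 lysosomal hydrolases and activators, 9 are lower in ICI and 5 in melanoma against control, and 18 are higher in the interaction.

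Lysosomal membrane proteins and regulators were compared in the same way. Of 37 tested, 3 were lower in ICI than in control (3.15% of all tested genes), 1 was lower in melanoma than in control (2.41%), and in the interaction 7 were higher and 1 lower (5.99% and 4.28%) at an unadjusted p under 0.05 by edgeR. In the interaction 25 lay above 0 and 12 below, with a median of 0.13. Leaving out single libraries gave 3 to 8 higher, 3 being the count without melanoma replicate 1 or without melanoma plus ICI replicate 1, and 4 that without control replicate 4, ICI replicate 2 or melanoma replicate 5. The 3 lower in ICI became 1 without ICI replicate 1 and 5 without control replicate 1. With the covariates 15 lysosomal membrane proteins and regulators were higher in the interaction and 4 lower, against 13.7% and 10.3% of all tested genes in that fit, and 7 were lower in ICI than in control, against 7.61%. The count higher in the interaction was 2 without control replicate 4 and melanoma plus ICI replicate 1, against 5.55% of all tested genes in that fit. Npc2, the gene most like Cd63, was at 65.2 ± 9.23 CPM for control, 47.5 ± 5.44 for ICI, 54.4 ± 4.08 for melanoma and 63.2 ± 8.85 for melanoma plus ICI, with an interaction of 0.67 (SE 0.15, edgeR unadjusted p = 0.000304, adjusted p = 0.253). Lamp2, a major glycoprotein of the lysosomal membrane, was at 84.6 ± 15.6, 69.2 ± 5.64, 70.5 ± 8.10 and 85.3 ± 16.0 CPM (interaction 0.56, SE 0.18, edgeR unadjusted p = 0.00548, adjusted p = 0.476).

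Among 21 tetraspanins other than Cd9 and Cd63, 8 were higher and 0 lower in the interaction at an unadjusted p under 0.05 by edgeR (5.99% and 4.28% of all tested genes), with a median of 0.28. The 8 became 5 without melanoma plus ICI replicate 1. In ICI against control 4 were lower (3.15% of all tested genes), a count that was 1 without control replicate 4, 8 without control replicate 1 and 7 without ICI replicate 4 or with the covariates (7.61% of all tested genes in that fit). The smallest p of this list was that of Tspan11, a gene of low abundance, with 0.726 ± 0.138 CPM in ICI and 2.17 ± 0.947 in melanoma plus ICI (log2 difference 1.57, SE 0.32, edgeR unadjusted p = 9.38e-05, adjusted p = 0.432), beside 1.83 ± 0.535 in control. Tspan31 was at 33.5 ± 1.10 CPM in ICI and 39.5 ± 4.25 in melanoma plus ICI (log2 difference 0.24, SE 0.07, edgeR unadjusted p = 0.00337, adjusted p = 0.563).

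Cd68 (ENSMUSG00000018774, chr11:69664213-69666153, minus strand), the lysosomal glycoprotein most used to stain phagocytic microglia, showed no such order. Its 117 to 200 counts per library gave 5.65 to 7.84 CPM for control, 5.57 to 6.82 for ICI, 5.43 to 7.21 for melanoma and 5.54 to 6.84 for melanoma plus ICI. The means were 6.5 ± 0.864, 6.24 ± 0.541, 6.51 ± 0.723 and 6.05 ± 0.521 CPM (SD, n = 5). The smallest p was in melanoma plus ICI against melanoma, at -0.11 (SE 0.11, 95% interval -0.34 to 0.13, edgeR unadjusted p = 0.35, adjusted p = 0.841). The interaction of Cd68 was -0.05 (95% interval -0.38 to 0.28). Its log2 CPM had r = -0.06 with the microglia score (rho -0.05, permutation adjusted p = 0.88, -0.13 without the 2 farthest libraries).

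The Cd68 window held TGAGTCA at 2 places, positions -149 and -24 relative to the RefSeq start at chr11:69666170, which is upstream of the start in the count tables, chr11:69666153. The stretches are at chr11:69666293-69666339 and chr11:69666171-69666214 on the minus strand, with the AP-1 letters in capitals. They are shown with that of Trem2 because these were the only member windows that held TGANTCA, in Trem2 as TGAATCA, and GAGGAAGT was in 0 of the 7.
Cd68, distal: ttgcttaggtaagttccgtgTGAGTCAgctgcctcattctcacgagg
Cd68, proximal: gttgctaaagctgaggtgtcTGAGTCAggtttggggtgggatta

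Lpl, lipoprotein lipase (ENSMUSG00000015568, chr8:68880491-68907448, plus strand), varied more between mice than between groups. Lpl was at 20.7, 41.3, 36.4, 44.1 and 24.6 CPM in control and at 31.4, 33.5, 52.8, 35.9 and 15.2 in ICI. It was at 26.7, 34.6, 33.9, 47.3 and 23.4 CPM in melanoma and at 31.0, 32.4, 11.03, 26.4 and 32.7 in melanoma plus ICI. The 11.03 of melanoma plus ICI replicate 3 and the 52.8 of ICI replicate 3 were the ends of the range, and all groups overlapped. The means were 33.4 ± 10.3, 33.7 ± 13.4, 33.2 ± 9.25 and 26.7 ± 9.12 CPM (SD, n = 5). The smallest p was in melanoma plus ICI against ICI, at -0.34 (SE 0.31, 95% interval -0.98 to 0.30, edgeR unadjusted p = 0.286, adjusted p = 0.717). This Lpl difference was -0.12 without ICI replicate 3, -0.13 without melanoma plus ICI replicate 3 and -0.53 without ICI replicate 5. With the choroid plexus and meninges covariates it turned to 0.10 (edgeR unadjusted p = 0.78).

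Lpl varied with markers of field CA3, the hippocampal field next to the dentate gyrus. Its r with the CA3 score, the mean log2 CPM of Bok, Cpne4, Cdh24, Iyd and Grik4, was 0.84 (rho 0.81, permutation p = 1e-05, the smallest that 100000 resamples give, adjusted p = 0.0016 over 160 pairs). It was 0.75 without the 2 farthest libraries and 0.83 on deviations from the group means. With the microglia score r was 0.26 (rho 0.25, permutation adjusted p = 0.519, 0.17 without the 2 farthest libraries). The summed CA3 markers ranged from 170.9 to 309.1 CPM for control, 145.6 to 385.3 for ICI, 166.8 to 394.3 for melanoma and 121.1 to 253.8 for melanoma plus ICI, the group with the lowest Lpl mean. Their part in that mean was not tested. The genes most like Lpl were Prrt1, Rnf182 and Wasf1, at r of 0.96, 0.96 and 0.93, of which Prrt1 and Wasf1 are known in neurons.

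Of 14 tested genes for partners of lipoprotein lipase and for lipid uptake, 2 were higher and 0 lower in the interaction at an unadjusted p under 0.05 by edgeR (5.99% and 4.28% of all tested genes), and the median was 0.02. Fabp7, a fatty acid carrier of astrocytes and neural progenitors, was at 19.1 ± 6.87, 13.2 ± 1.38, 10.7 ± 2.12 and 22.5 ± 9.55 CPM (interaction 1.59, SE 0.42, edgeR unadjusted p = 0.00118, adjusted p = 0.346).

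Other disease-associated genes were compared as a list, which shares genes such as Ctsl, Lgals3 and Apoe with the lists above. Of 29 such genes 23 were tested, and in the interaction 6 were higher and 0 lower at an unadjusted p under 0.05 by edgeR (5.99% and 4.28% of all tested genes), 22 of 23 lay above 0, and the median was 0.24. In ICI against control 5 were lower and 1 higher (3.15% and 2.08% of all tested genes). That count of 5 was 1 without control replicate 4, 3 without control replicate 5, and 2 without ICI replicate 1 or 2. Lyz2, lysozyme of macrophages and neutrophils, was at 6.38 ± 0.431 CPM for control, 3.71 ± 1.1598 for ICI, 5.31 ± 1.07 for melanoma and 7.41 ± 1.26 for melanoma plus ICI. The ranges of ICI, 2.70 to 5.07, and of melanoma plus ICI, 6.01 to 9.20, did not overlap (log2 difference 0.99, SE 0.18, edgeR unadjusted p = 2.85e-05, adjusted p = 0.318), as held for 0.586% of all tested genes in that direction and 0.863% in the other. The border macrophage score was 0.14 ± 0.49 log2 CPM in ICI and 0.82 ± 0.20 in melanoma plus ICI (SD, n = 5), beside 0.50 ± 0.49 in control, and its part in the difference of Lyz2 was not tested. Ctsl was at 75.7 ± 10.5, 62.8 ± 5.58, 62.7 ± 5.53 and 75.5 ± 8.46 CPM in the 4 groups (interaction 0.54, SE 0.14, edgeR unadjusted p = 0.00104, adjusted p = 0.344).

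Homeostatic microglia genes, known to be lowered in the disease-associated state, had medians below 0 in all 3 contrasts against control, -0.14 for ICI, -0.11 for melanoma and -0.10 for melanoma plus ICI, with 12 of 16 below 0 in each. Of the 16, 3 were lower in ICI than in control (3.15% of all tested genes), 5 were lower in melanoma than in control (2.41%), and 3 were higher and 1 lower in the interaction (5.99% and 4.28%) at an unadjusted p under 0.05 by edgeR. Melanoma plus ICI had 0 higher or lower than control (1.1% and 1.28% of all tested genes), 1 higher than melanoma (2.63%) and 1 lower than ICI (4.51%), the last 2 with medians of 0.04. Without control replicate 4 the number lower was 1 in ICI and 2 in melanoma. The 3 homeostatic microglia genes lower in ICI became 5 without control replicate 3 or ICI replicate 3 and 7 with the covariates (7.61% of all tested genes in that fit), and the 5 lower in melanoma became 3 without control replicate 2 or melanoma replicate 1 or 5. The 3 higher in the interaction became 5 without control replicate 3, melanoma replicate 4 or melanoma plus ICI replicate 3, and 7 with the covariates (13.7% of all tested genes in that fit). Olfml3 was at 17.5 ± 2.80, 14.4 ± 1.00, 13.5 ± 1.81 and 16.3 ± 1.62 CPM (interaction 0.55, SE 0.16, edgeR unadjusted p = 0.00242, adjusted p = 0.406). Fcrls was at 20.7 ± 3.37, 16.5 ± 1.81, 16.9 ± 1.60 and 19.3 ± 1.97 CPM (interaction 0.52, SE 0.16, edgeR unadjusted p = 0.00329, adjusted p = 0.432). The microglia score had means of 4.70 ± 0.15, 4.56 ± 0.08, 4.57 ± 0.03 and 4.61 ± 0.07 log2 CPM (SD, n = 5), so the control mean was the highest of the 4 and those of ICI and melanoma the lowest.

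**Figure D5:**
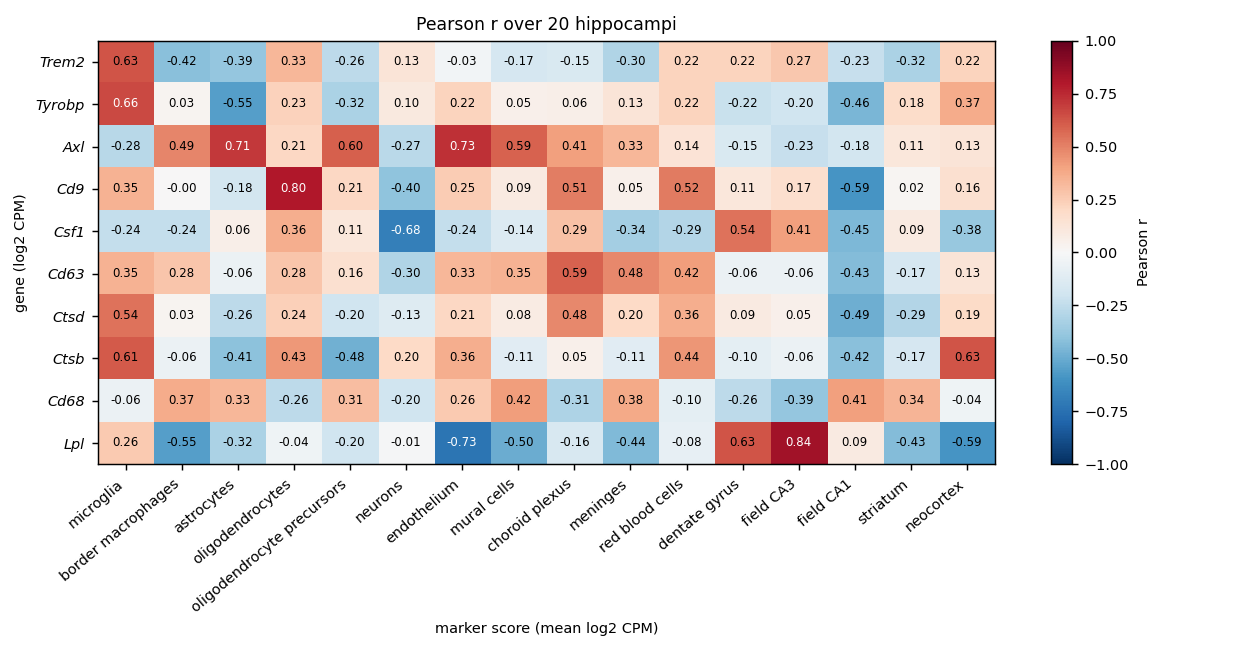
Pearson's r over the 20 hippocampi between log2 CPM of each of the 10 genes (rows) and 16 marker scores of cell types and tissues (columns, mean log2 CPM of their markers). Lpl stands out with field CA3 (0.84), Cd9 with oligodendrocytes (0.80) and Axl with endothelium (0.73) and astrocytes (0.71).

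By Pearson's r, correlations with marker scores passed for Axl, Cd9, Csf1 and Lpl and for no other member. Of 160 pairs of gene and score, 6 passed an adjusted p of 0.05 in the permutation test, 4 positive and 2 negative, and 0 of the 6 involved microglia. By ranks, all 6 passed as well, with Cd63 and choroid plexus and Cd9 and field CA1 (r = -0.59, rho -0.66, permutation adjusted p = 0.0658 for r and 0.0384 for rho, -0.65 without the 2 farthest libraries) in addition. By r, those of Trem2, Tyrobp, Ctsb and Ctsd with microglia were just outside, at adjusted p-values of 0.0512, 0.0512, 0.0607 and 0.075 in the permutation test. By rho their adjusted p-values were 0.249, 0.249, 0.123 and 0.249 in that test. With each library left out in turn the adjusted p-values of r ran from 0.026 to 0.353 for Trem2, 0.02 to 0.311 for Tyrobp and 0.0267 to 0.311 for Ctsd. Besides those of Lpl with CA3 and of Cd9, the 6 were Axl with endothelium (r = 0.73, rho 0.73, adjusted p = 0.00832, 0.59 without the 2 farthest libraries), Axl with astrocytes (r = 0.71, rho 0.73, adjusted p = 0.00832, 0.57 without them), Lpl with endothelium (r = -0.73, rho -0.67, adjusted p = 0.00832, -0.58 without them) and Csf1 with neurons (r = -0.68, rho -0.73, adjusted p = 0.0267, -0.61 without them). Scores of libraries share depth and dissection, so they are not independent of each other.

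Among the members themselves 5 of 45 pairs passed by r and 3 by rho, and Cd9, Cd63, Ctsd and Ctsb accounted for 4 of the 5. Besides Cd63 with Ctsd and Ctsd with Ctsb these were Cd9 with Cd63 (r = 0.74, rho 0.71, permutation adjusted p = 0.00382, 0.78 without the 2 farthest libraries) and Cd9 with Ctsd (r = 0.65, rho 0.59, adjusted p = 0.0217 for r and 0.0786 for rho, 0.65 without them). Axl with Lpl was negative (r = -0.59, rho -0.45, adjusted p = 0.0472 for r and 0.217 for rho), and was -0.39 without the 2 farthest libraries.

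The genes most similar in expression are given here for the remaining members. The genes most like Axl were Stab1, Adgrf5 and Itpr3, at r of 0.90, 0.88 and 0.88 over the 20 libraries, of which Adgrf5 is known in endothelium and Stab1 in endothelium and in macrophages. With the border macrophage score, whose markers include Stab1, Axl had r = 0.49 (rho 0.44, permutation p = 0.0288, adjusted p = 0.184, 0.44 without the 2 farthest libraries). Those most like Csf1 were Rnf19a, Brpf1 and Rfwd3, at 0.84, 0.83 and 0.82. Those most like Ctsb were Medag, Vcpkmt and Lgmn, at 0.87 each, the last being a lysosomal endopeptidase. Values were lower for the genes of few counts, with Ifitm10, 2300009A05Rik and Siva1 at 0.79, 0.79 and 0.78 for Trem2, Snrnp35, Cdca4 and Slc25a39 at 0.74, 0.74 and 0.73 for Tyrobp, and 4831440E17Rik, Gm45380 and Tatdn3 at 0.72, 0.67 and 0.67 for Cd68. The best other member was the 1325th most like Trem2 and the 544th most like Tyrobp.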

How the data were processed

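Total RNA of single hippocampi was sequenced in 20 libraries. Per the submitters' processing notes STAR 2.5.2b and DESeq2 1.16.1 were used, with roles not given there. The authors deposited raw counts per gene as whole numbers, with coordinates and exonic lengths, per the file headers. The counting program, strand use and genome build are not given in the sources used here. Of the 49671 identifiers 45128 have the same start and end in GENCODE M21 (GRCm38), the source of symbols for 49326. Cd63 and Ctsb differ from it in start or end, so their coordinates are those of the tables.

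Genes were kept with edgeR's filterByExpr (minimum count 10, minimum total 15), which left 18427, and scaled by TMM (factors 0.9555 to 1.0432). edgeR 4.0.16 in R 4.3.3 fitted robust quasi-likelihood models with 1 mean per group to all 20 libraries, with two-sided tests and Benjamini-Hochberg adjustment per contrast at 0.05. CPM is per 1000000 of the TMM-scaled total, and log2 CPM has a prior count of 2. Correlations over the 20 libraries used two-sided permutation tests with 100000 resamples. Libraries held 21990624 to 25735149 counts. Trem2, Tyrobp and Cd68 had the fewest counts, at most 336 in a library. Alternatives were DESeq2 1.42.0, limma 3.58.1 voom, other scaling and filtering, only the groups compared, each library left out, a replicate block, and, chosen after seeing the data, list counts under these settings.

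For each gene the text gives the contrast of smallest p, every other contrast with an unadjusted p under 0.05, and the 3 most similar genes of mean 1 CPM or more, and for each list the 2 genes of smallest p. One gene that this rule names is not reported here. The members and lists were chosen with earlier results of these data known. Replicate numbers were checked for pairing: of 30 same-numbered pairs of libraries 10 had correlated deviations over 0.1, so they do not pair the mice.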

Additional observations from a re-analysis of the deposited data

Results flagged for a closer look

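Of the 40 sets of 5 values (10 genes in 4 groups), 1 held a mouse far from the rest. Cd63 was at 130.4 CPM in melanoma plus ICI replicate 4, while the other 4 mice of that group lay between 71.7 and 84.2 CPM, so the gap to the nearest was 0.787 of the whole range, above the limit of 0.71 for 5 values. About 1 set in 20 passes this limit by chance. The same mouse had the highest Ctsd of its group, at 244.6 CPM, and the highest Cd9, at 49.8 CPM.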

How the results depend on the processing

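The interaction of Cd63 was 0.69 to 1.05 and that of Ctsd 0.60 to 0.80 over the 27 alternatives, on the log2 scale, with adjusted p-values of 0.0404 to 0.527 and 0.0282 to 0.527, and DESeq2 alone took them past the threshold (2 members called against 0). Genes called over the whole table, 0 in edgeR in every contrast, were 1 in ICI against control with DESeq2. In melanoma against control they were 8 with DESeq2, 1 with limma voom, 3 with only the 2 groups compared and 0 to 3 with each library left out, 1 without control replicate 2 and 3 without melanoma plus ICI replicate 3. In melanoma plus ICI against melanoma they were 25 with limma voom and 0 to 12 with each library left out, 12 without melanoma plus ICI replicate 3. In melanoma plus ICI against ICI they were 9 with DESeq2. In the interaction they were 47 with DESeq2, 19 with limma voom, 1 without control replicate 4 and melanoma plus ICI replicate 1, and 0 to 11 with each library left out, 11 without melanoma plus ICI replicate 3. The cause was not tested. The interaction needs all 4 groups and was not fitted with only 2. The difference of Lpl between melanoma plus ICI and ICI turned from -0.34 to 0.10 with the choroid plexus and meninges scores as covariates (edgeR, adjusted p = 0.901). Correlations past the threshold between genes and scores numbered 6, and 11 with CPM of the raw library total, and 5 to 14 with each library left out (14 without melanoma plus ICI replicate 2, 12 without melanoma replicate 3, 10 without control replicate 4 or melanoma replicate 4). Those between members numbered 5, and 2 without control replicate 4 and melanoma plus ICI replicate 1, and 3 to 6 with each library left out (3 without melanoma plus ICI replicate 4, control replicate 4 or ICI replicate 1). With the replicate block, 0 genes were called by edgeR in each of the 6 contrasts, as without it, and the interaction of Cd63 was 0.95 (adjusted p = 0.181), while Cd9 in ICI against control passed the unadjusted threshold (edgeR unadjusted p = 0.033, adjusted p = 0.798). Of 20 libraries, 6 correlated best with their own number. Counts were fewest for Trem2, Tyrobp and Cd68, at most 336 in a library, while the standard errors were largest for Lpl, Cd9 and Cd63 (0.31, 0.20 and 0.16 in ICI against control).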
